A study of Mus musculus with 12 samples.

Results

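Interferons are secreted proteins that bind paired receptor chains on the cell surface, type I interferons through Ifnar1 and Ifnar2 and interferon-gamma through Ifngr1 and Ifngr2. Kinases bound to the receptors phosphorylate STAT proteins, and a complex that contains Stat2 and Irf9 enters the nucleus and binds interferon-stimulated response elements (ISREs) before a large set of genes, many of which encode antiviral sensors and effectors. In the thymus, where T cells develop and are selected, many of these genes are transcribed without infection, and interferons made by thymic epithelium have been linked to the last steps of thymocyte maturation. The RNA of 39 genes of this system was followed here in whole mouse thymus: the 4 receptor chains and 35 interferon-stimulated genes or transcription factors of the response. They were chosen by name, and the estimated counts of all transcripts carrying a gene's symbol were added up. All 39 were found among the 22843 gene symbols of the mRNA table, and all 39 were among the 14805 genes that passed the filter on low counts.

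Thymuses came from wild type male C57BL/6 mice aged 2 weeks (2W), 6 weeks (6W) and 3 months (3M), with 2 biological replicates per age, and their ribosomal RNA-depleted, strand-specific libraries gave 16519753 to 22553481 estimated counts each. The animals had no treatment, and no transgene or deletion. Levels are given as CPM, counts divided by the total of the library after scaling with the trimmed mean of M values (TMM), and levels of different genes are compared only as FPKM, which also divides by transcript length. Differences between ages are log2 fold changes with their standard errors (SE) from a single edgeR quasi-likelihood fit to all 6 libraries, and a gene was called where its p, adjusted by the Benjamini-Hochberg method over all 14805 genes, was under 0.05. The 3 comparisons (6W against 2W, 3M against 6W and 3M against 2W) share libraries, so their results are not independent of each other. For any gene taken alone, permuting 2 libraries against 2 exactly gives a p of 0.333 at the lowest (2-sided), so the tests rest on the spread that the fit shares among genes.

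The label thymus was checked against marker genes: all 8 thymocyte markers (Cd3e, Cd4, Cd8a and others) and all 7 markers of CD4+CD8+ double-positive (DP) thymocytes were detected in every library, with summed levels of 5316 to 7029 CPM and 9825 to 14158 CPM. Rank correlations between libraries were 0.983 to 0.993 within an age and 0.968 to 0.988 between ages. The lowest within an age was that of the 3M pair, and 3M replicate 2 correlated more closely with the 6W libraries (0.987 and 0.988). One library, 3M replicate 2, stood apart in its red blood cell markers, whose sum was 2167 CPM there against 402 to 816 CPM in the other 5.

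Promoter sequence was looked at first, because the ISRE is the element through which this group of genes is known to be induced. RefSeq promoter windows (GRCm38.p6, 250 bases before to 50 bases after an annotated start) were given for 30 of the 39 genes, in 35 windows. The ISRE core was searched on both strands as GAAA, any 2 bases, GAAA, and the interferon-gamma activated site (GAS) as TTCNNNGAA, which reads the same on both strands. The ISRE core lay in 17 of the 35 windows (48.6%), belonging to 16 genes, against 3.44% of all 32851 windows. The GAS lay in 8 of the 35 windows (22.9%), against 8.30% of all. None of the 4 windows of the receptor genes held the ISRE core, while 2 of them (Ifnar1 and Ifnar2) held the GAS. The GAS lay in 6 of the 31 windows of the other genes. These matches describe letters in the window and not binding.

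The stretches below show how the cores are arranged before the starts of genes with contrasting changes with age. Each is written 5' to 3' on the gene's own strand with 20 bases on either side, shortened where the annotated start came first, and capitals mark the matches, which run together where they overlap. A match on the other strand reads TTTC, 2 bases, TTTC.
Rsad2, chr12:26456543-26456592 (minus strand), ISRE core: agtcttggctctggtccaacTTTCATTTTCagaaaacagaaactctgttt
Ifit1, chr19:34640765-34640833 (plus strand), ISRE core: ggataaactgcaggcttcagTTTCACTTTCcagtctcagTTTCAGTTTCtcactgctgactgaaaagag
Ifit3, chr19:34583353-34583436 (plus strand), ISRE core: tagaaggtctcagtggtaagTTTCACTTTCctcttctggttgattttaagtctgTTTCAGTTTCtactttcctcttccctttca
Ifit3b, chr19:34607749-34607832 (plus strand), ISRE core: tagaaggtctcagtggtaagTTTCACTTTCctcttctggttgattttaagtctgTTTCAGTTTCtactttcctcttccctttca
Oas1a, chr5:120907526-120907565 (minus strand), ISRE core: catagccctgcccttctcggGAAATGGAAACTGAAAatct
Oas1g, chr5:120887614-120887651 (minus strand), ISRE core: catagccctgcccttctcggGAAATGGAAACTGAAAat
Oas3, chr5:120777705-120777754 (minus strand), ISRE core: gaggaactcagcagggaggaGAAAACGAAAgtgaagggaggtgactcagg
Bst2, chr8:71537567-71537622 (minus strand), ISRE core: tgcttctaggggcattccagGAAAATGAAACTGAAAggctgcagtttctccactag
Isg15, chr4:156200855-156200916 (minus strand), ISRE core: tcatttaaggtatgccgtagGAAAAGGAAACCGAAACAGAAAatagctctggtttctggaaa
Gbp2, chr3:142620584-142620633 (plus strand), ISRE core: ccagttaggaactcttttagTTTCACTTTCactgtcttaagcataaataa
Trim30a, chr7:104465200-104465249 (minus strand), ISRE core: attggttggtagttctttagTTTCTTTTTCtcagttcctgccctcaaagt
Irf1, chr11:53769904-53769952 (plus strand), GAS: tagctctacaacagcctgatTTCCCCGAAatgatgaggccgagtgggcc
Isg15 held 3 overlapping ISRE cores, Bst2 and Oas1a held 2 overlapping ones, and Ifit1 and Ifit3 held 2 cores set apart. The Ifit3 and Ifit3b stretches are the same in every base. These near-identical copies, like Oas1a and Oas1g, can share reads, so the division of counts within each pair is uncertain.

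From 2W to 3M, 20 of the 35 stimulated genes and factors rose and 1 of the 4 receptors, Ifngr1, fell. In 3M against 2W, 20 of the 39 genes were thus called higher, against 7.91% of all tested genes, and 1 was called lower, against 3.10%. The median log2 fold change of the 39 was 0.71, a 1.64-fold difference, beside -0.03 over all tested genes. In 31 of the 39 both 3M libraries lay above both 2W libraries, against 27.7% of all genes. By the threshold the study used for differential mRNAs (unadjusted p under 0.05 and a change of more than 2-fold), 11 were higher, against 7.67%. The number of calls moved with single libraries: it was 7 without 2W replicate 1, 5 without 2W replicate 2, 12 without 6W replicate 1, 12 without 6W replicate 2, 17 without 3M replicate 1 and 18 without 3M replicate 2, against 21 with all 6. In those fits 239, 289, 567, 572, 1741 and 1376 genes of the whole table were called, against 1630.

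**Figure D1:**
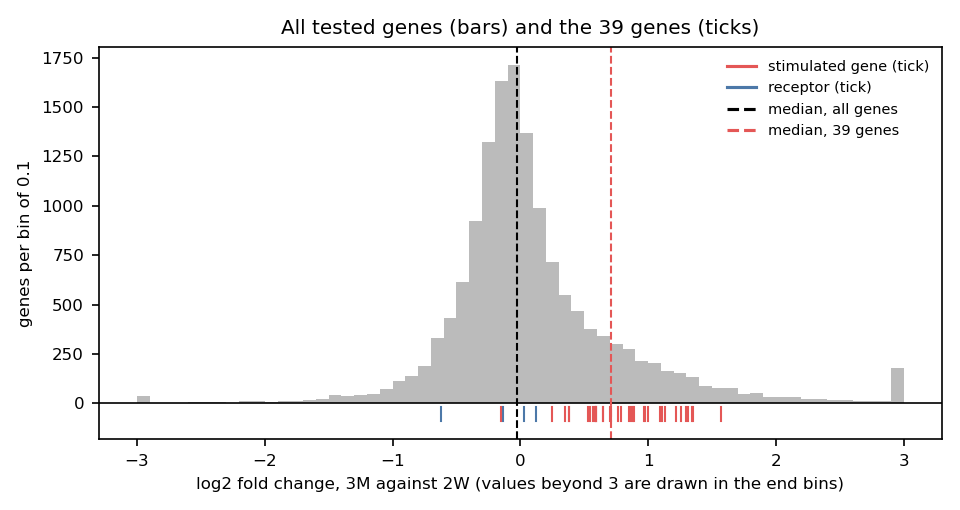
Histogram of the log2 fold change in 3M against 2W for the 14805 tested genes (grey bars, genes per bin of 0.1, values beyond 3 in the end bins), with a tick below the axis for each of the 35 stimulated genes (red) and 4 receptors (blue) and dashed lines at the medians. The ticks of the stimulated genes centre to the right of the bars, with the median of all 39 at 0.71 against -0.03 for all genes.

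Each step on its own gave few calls. In 6W against 2W the median of the 39 genes was 0.28 on the log2 scale, beside -0.01 over all genes. By edgeR only Ifi27l2a of the 39 was called, as higher, against 1.47% of all genes, and it was also the only one past the study's threshold, against 4.48%. DESeq2 called 4 of the 39, and total-count scaling, no filter on low counts and a fit of only the 4 libraries compared gave 3 calls each. Calls in the whole table went from 257 to 834, 395, 467 and 662 in these fits. A replicate block, symbols as written and leaving out assembled transcripts gave 0 calls each, with 5, 124 and 4 in the whole table. Both 6W libraries lay above both 2W libraries in 26 genes, against 28.0% of all. Ifi27l2a lost its call in each fit that left out a 2W or 6W library. Almost no gene of the whole table was called in those fits, so the loss was not particular to Ifi27l2a. With 1 library left out, the median of the 39 genes in this step was 0.21 to 0.35.

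In 3M against 6W the median was 0.36, beside 0.02 over all genes. No member was called by edgeR (0.00% of all genes were called higher), 21 had an unadjusted p under 0.05 and were higher, against 7.81%. DESeq2 called 9 of the 39 in this step and 335 genes in the whole table. The study's threshold was passed in this step by 4 genes (Oas2, Mx1, Rsad2 and Cmpk2), against 1.29% of all. Both 3M libraries lay above both 6W libraries in 27 genes, against 25.9% of all. An order with both 2W libraries lowest, both 6W libraries between and both 3M libraries highest was seen in 21 of the 39, against 8.79% of all tested genes.

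**Figure D2:**
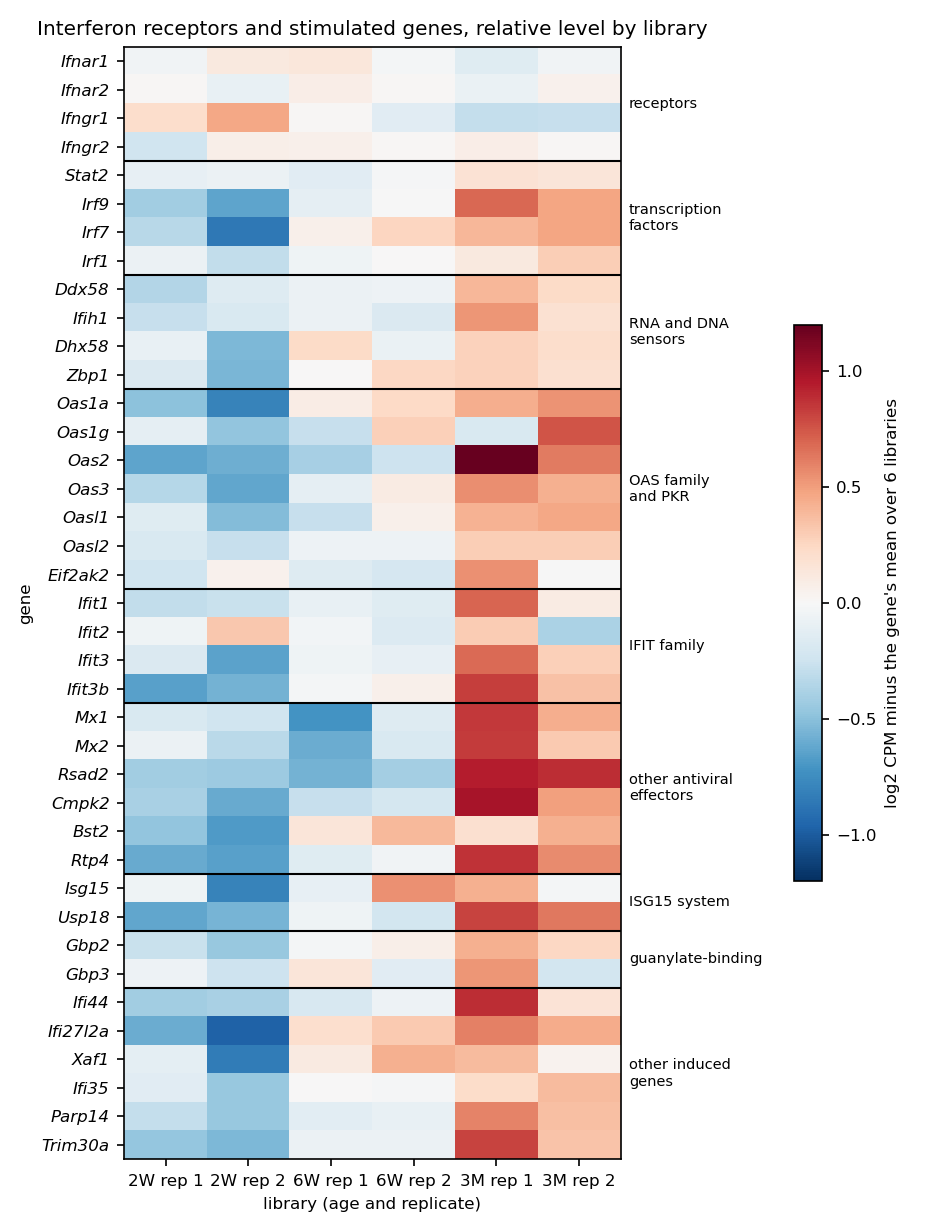
Heat map of log2 CPM minus the gene's own mean over the 6 libraries (columns, 2 per age) for the 39 genes (rows, grouped by role); red is above and blue below the mean. Most stimulated genes pass from blue at 2W to red at 3M, while the 4 receptors at the top do not, and in several rows (Oas2, Ifit1, Ifi44, Trim30a) 3M replicate 1 is redder than 3M replicate 2.

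Among the 4 receptors, 1 fell and 3 did not pass the test in any comparison. Ifngr1, the chain that binds interferon-gamma, was at 413 and 493 CPM at 2W, 361 and 324 CPM at 6W, and 293 and 295 CPM at 3M. No library of one age overlapped with those of another, and Ifngr1 was 0.65-fold its 2W level at 3M (log2 fold change -0.62, SE 0.12, edgeR adjusted p = 0.026). Its call was lost in each of the 6 fits that left out 1 library, with log2 fold changes between -0.75 and -0.48 over the alternatives. It was also the member with the highest level per length, at a mean of 159 FPKM.

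Ifngr2, the signalling partner of Ifngr1, was at 51.8 and 64.0 CPM at 2W, 63.8 and 61.5 CPM at 6W, and 64.4 and 61.5 CPM at 3M. Its ages overlapped, with a log2 fold change of 0.12 (SE 0.13, edgeR adjusted p = 0.607) in 3M against 2W. In 2W replicate 1, 12.6% of its counts came from an assembled transcript that had no count at 6W or 3M.

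Ifnar1, a chain of the type I interferon receptor, was at 153 and 171 CPM at 2W, 173 and 155 CPM at 6W, and 142 and 153 CPM at 3M, with a log2 fold change of -0.13 (SE 0.12, edgeR adjusted p = 0.521) in 3M against 2W. Its partner Ifnar2 was at 60.1 and 56.0 CPM at 2W, 63.1 and 60.2 CPM at 6W, and 56.5 and 61.7 CPM at 3M, with a log2 fold change of 0.03 (SE 0.11, edgeR adjusted p = 0.907). For both chains the ages overlapped in 3M against 2W and the difference was about the size of its SE or smaller.

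The transcription factors of the response were 2 called higher and 2 not. Irf9, the DNA-binding subunit of the complex with Stat2, was at 36.0 and 30.9 CPM at 2W, 44.4 and 47.7 CPM at 6W, and 77.5 and 66.6 CPM at 3M. Its libraries were higher at each later age, and it was 2.15-fold higher at 3M than at 2W (log2 fold change 1.11, SE 0.13, edgeR adjusted p = 0.00824), a call it kept in all 13 alternative fits. Irf7, the factor that amplifies type I interferon transcription, was at 33.4 and 23.2 CPM at 2W, 43.9 and 50.2 CPM at 6W, and 55.3 and 58.2 CPM at 3M. Irf7 was 2.00-fold higher at 3M than at 2W (SE of the log2 value 0.18, edgeR adjusted p = 0.0216), with a log2 fold change of 0.73 (SE 0.18) in the earlier step and 0.27 (SE 0.18) in the later one.

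Stat2, a subunit of the ISRE-binding complex, ranged from 67.5 to 68.5 CPM at 2W, 65.7 to 71.4 CPM at 6W, and 79.6 to 81.6 CPM at 3M. Irf1, a factor downstream of interferon-gamma whose promoter stretch with a GAS is shown above, ranged from 71.2 to 83.3 CPM at 2W, 84.3 to 87.6 CPM at 6W, and 94.5 to 107 CPM at 3M. In both, the 3M libraries lay above the 2W libraries, and neither passed the adjusted test.

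Of the 4 sensors of foreign nucleic acid, the 2 RNA helicases that start the antiviral signal were called higher at 3M than at 2W. Ddx58, which encodes RIG-I, was at 53.4 and 61.4 CPM at 2W, 65.2 and 65.4 CPM at 6W, and 89.9 and 80.2 CPM at 3M, a 1.48-fold difference (log2 fold change 0.57, SE 0.12, edgeR adjusted p = 0.0329). Ifih1, which encodes MDA5, was at 37.1 and 39.6 CPM at 2W, 42.9 and 39.8 CPM at 6W, and 64.8 and 51.0 CPM at 3M, a 1.51-fold difference (log2 fold change 0.59, SE 0.14, edgeR adjusted p = 0.0474). Both calls stood near the threshold: of the 6 fits without 1 library, each was called in 1. Dhx58, which encodes LGP2, a regulator of those helicases, ranged from 10.1 to 17.7 CPM and Zbp1, a sensor of Z-form nucleic acids, from 29.9 to 52.9 CPM over the 6 libraries, and neither passed.

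The oligoadenylate synthetases make the messenger that turns on RNase L, and Eif2ak2 encodes PKR, the kinase that stops translation when it binds double-stranded RNA. Of these 7 genes 4 were called higher at 3M than at 2W and none lower. Oas2 was at 5.75 and 5.95 CPM at 2W, 6.79 and 7.50 CPM at 6W, and 21.1 and 13.8 CPM at 3M. This was a 2.97-fold difference between 3M and 2W, the largest among the 39 genes (log2 fold change 1.57, SE 0.24, edgeR adjusted p = 0.0131), and most of it lay in the later step (log2 fold change 1.28, SE 0.23, edgeR adjusted p = 0.199), in which 3M replicate 1 was well above 3M replicate 2. The rank did not hold in every alternative fit: the log2 value of Oas2 fell as low as 1.26, and that of Rsad2 no lower than 1.33. Oas1a was at 12.3 and 9.93 CPM at 2W, 18.5 and 20.4 CPM at 6W, and 23.5 and 25.2 CPM at 3M, 2.19-fold higher at 3M than at 2W (log2 fold change 1.13, SE 0.15, edgeR adjusted p = 0.0107). Its larger step was the earlier one, at 0.81 (SE 0.15, edgeR adjusted p = 0.0614). Oas3 was at 24.97 and 20.5 CPM at 2W, 29.4 and 33.9 CPM at 6W, and 46.7 and 42.6 CPM at 3M, a 1.96-fold difference (log2 fold change 0.97, SE 0.15, edgeR adjusted p = 0.0131) spread over both steps at 0.48 (SE 0.15) and 0.50 (SE 0.14).

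Oasl2, a relative of these enzymes, was at 62.0 and 58.2 CPM at 2W, 67.5 and 67.5 CPM at 6W, and 86.6 and 86.8 CPM at 3M, a 1.44-fold difference (log2 fold change 0.53, SE 0.10, edgeR adjusted p = 0.0239). Between 74.6% and 95.2% of its counts in a library came from assembled transcripts, and without them its log2 fold change was 0.75 with an SE of 0.68 (edgeR adjusted p = 0.563). Oasl1 ranged from 5.76 to 11.4 CPM, Eif2ak2 from 41.2 to 71.1 CPM and Oas1g from 1.23 to 2.87 CPM, and none of the 3 passed. Oas1g, with a mean of 0.918 FPKM, had the lowest level per length of all 39.

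In the IFIT family, whose proteins bind foreign RNA and block its translation, 2 of 4 genes were called higher at 3M than at 2W. Ifit3 was at 33.8 and 24.4 CPM at 2W, 36.6 and 35.6 CPM at 6W, and 61.0 and 46.6 CPM at 3M, a 1.85-fold difference (log2 fold change 0.89, SE 0.20, edgeR adjusted p = 0.0362). Its copy Ifit3b was at 7.02 and 7.42 CPM at 2W, 10.8 and 11.5 CPM at 6W, and 19.5 and 14.1 CPM at 3M, a 2.32-fold difference (log2 fold change 1.22, SE 0.20, edgeR adjusted p = 0.0160). The paired copies were higher in both 3M libraries than in any earlier one. Ifit1 did not pass, at 29.8 to 30.4 CPM at 2W, 33.1 to 34.5 CPM at 6W, and 39.2 to 59.6 CPM at 3M, where its 2 libraries differed most. Ifit2 ranged from 57.9 to 75.0 CPM at 2W, 53.6 to 58.6 CPM at 6W, and 46.1 to 74.0 CPM at 3M, with the 3M range overlapping both earlier ones, and was not called.

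Antiviral effectors of other kinds are encoded by 6 further genes, of which 4 were called higher at 3M than at 2W. Rsad2 (viperin), a radical enzyme that makes a chain-terminating nucleotide, was at 11.3 and 11.2 CPM at 2W, 10.2 and 11.4 CPM at 6W, and 29.2 and 28.0 CPM at 3M. The 2W and 6W libraries overlapped (log2 fold change -0.06, SE 0.13) and both 3M libraries stood far above them, 2.54-fold over 2W (log2 fold change 1.35, SE 0.13, edgeR adjusted p = 0.00571). The later step alone was 1.40 (SE 0.13) with an unadjusted p of 1.91e-05 and an edgeR adjusted p of 0.142, the smallest of the 39 in that step. Cmpk2, a nucleotide kinase that RefSeq places next to Rsad2 in the genome, was at 9.99 and 8.64 CPM at 2W, 10.8 and 11.3 CPM at 6W, and 26.1 and 18.5 CPM at 3M. It was 2.39-fold higher at 3M than at 2W (log2 fold change 1.26, SE 0.20, edgeR adjusted p = 0.0153), and with its assembled transcript left out, which held 21.7% to 59.3% of its counts, the log2 value was 1.14 (SE 0.27) and no longer called (edgeR adjusted p = 0.0641).

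Bst2 (tetherin), which holds budding virus at the cell surface, was at 14.4 and 12.4 CPM at 2W, 22.1 and 26.1 CPM at 6W, and 22.8 and 26.8 CPM at 3M. Its log2 fold change was 0.84 between 2W and 6W (SE 0.16, edgeR adjusted p = 0.0593), with 0.04 (SE 0.15) in the later step and a called 1.85-fold difference over the whole span (log2 fold change 0.89, SE 0.16, edgeR adjusted p = 0.0204). Rtp4, known to dampen this response, was at 13.97 and 13.5 CPM at 2W, 19.2 and 20.7 CPM at 6W, and 38.9 and 31.6 CPM at 3M, higher at each later age, with a 2.56-fold difference between 3M and 2W (log2 fold change 1.35, SE 0.14, edgeR adjusted p = 0.00688).

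Mx1, a GTPase that acts on influenza viruses, was at 8.54 and 8.22 CPM at 2W, 5.91 and 8.74 CPM at 6W, and 17.5 and 13.1 CPM at 3M. Both 3M libraries were above the rest, with a log2 fold change of 1.06 (SE 0.24, edgeR adjusted p = 0.216) in 3M against 6W and 0.87 (SE 0.24, edgeR adjusted p = 0.0706) in 3M against 2W. That later step rested on assembled transcripts, which made up 65.4% to 84.1% of its counts: without them it was 0.11 (SE 0.42). Its relative Mx2 ranged from 3.25 to 4.68 CPM at 2W and 6W and from 6.09 to 8.78 CPM at 3M and was not called. RefSeq lists both as transcribed pseudogenes in the reference strain.

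Usp18 and Isg15 belong to one modification system. Usp18, which removes ISG15 from proteins and also blocks signalling at Ifnar2, was at 27.6 and 28.9 CPM at 2W, 41.1 and 36.6 CPM at 6W, and 74.5 and 66.0 CPM at 3M. The 3 ages were well apart, with a 2.48-fold difference between 3M and 2W (log2 fold change 1.31, SE 0.12) and the smallest adjusted p among the 39 genes (edgeR adjusted p = 0.00561). Isg15, the ubiquitin-like modifier itself, ranged from 4.84 to 8.16 CPM at 2W, 7.90 to 12.4 CPM at 6W, and 8.29 to 11.3 CPM at 3M. Both 3M libraries lay above both 2W libraries, the 6W and 3M libraries overlapped, and Isg15 did not pass the adjusted test in any comparison. Its window held 3 ISRE cores.

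Of the guanylate-binding proteins, GTPases that attack the vacuoles of intracellular pathogens, Gbp2 was called and Gbp3 was not. Gbp2 was at 50.5 and 44.4 CPM at 2W, 60.0 and 64.0 CPM at 6W, and 82.1 and 72.6 CPM at 3M, in ascending order without overlap (1.63-fold between 3M and 2W, log2 fold change 0.70, SE 0.12, edgeR adjusted p = 0.0198). Gbp3 ranged from 9.32 to 15.9 CPM with overlapping ages. These genes are close relatives, and reads in shared stretches may have been divided between them.

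Among the remaining 6 induced genes 4 were called higher at 3M than at 2W. Ifi27l2a, a small interferon-induced protein and the second highest member per length at 98.8 FPKM, was at 30.3 and 23.4 CPM at 2W, 52.6 and 56.7 CPM at 6W, and 69.3 and 62.3 CPM at 3M. Its 2.04-fold difference between 6W and 2W was the call in that step (log2 fold change 1.03, SE 0.15, edgeR adjusted p = 0.0363), and over the whole span it was 2.45-fold higher (log2 fold change 1.29, SE 0.15, edgeR adjusted p = 0.00768). Trim30a, a ubiquitin ligase of the TRIM family, was at 69.8 and 66.3 CPM at 2W, 91.5 and 91.5 CPM at 6W, and 169 and 122 CPM at 3M (2.14-fold between 3M and 2W, log2 fold change 1.10, SE 0.16, edgeR adjusted p = 0.0131). Parp14, an ADP-ribosyltransferase, was at 145 and 130 CPM at 2W, 163 and 167 CPM at 6W, and 269 and 229 CPM at 3M (1.81-fold, log2 fold change 0.85, SE 0.13, edgeR adjusted p = 0.0124). In both of these genes the later step was the larger. Ifi35 was at 27.2 and 21.7 CPM at 2W, 30.0 and 29.4 CPM at 6W, and 34.7 and 38.9 CPM at 3M (1.51-fold, log2 fold change 0.59, SE 0.14, edgeR adjusted p = 0.0481), a call lost in 5 of the 6 fits without 1 library. Ifi44 ranged from 10.9 to 13.99 CPM at 2W and 6W and from 16.3 to 26.9 CPM at 3M, and Xaf1 ranged from 4.17 to 10.0 CPM, and neither passed.

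**Figure D3:**
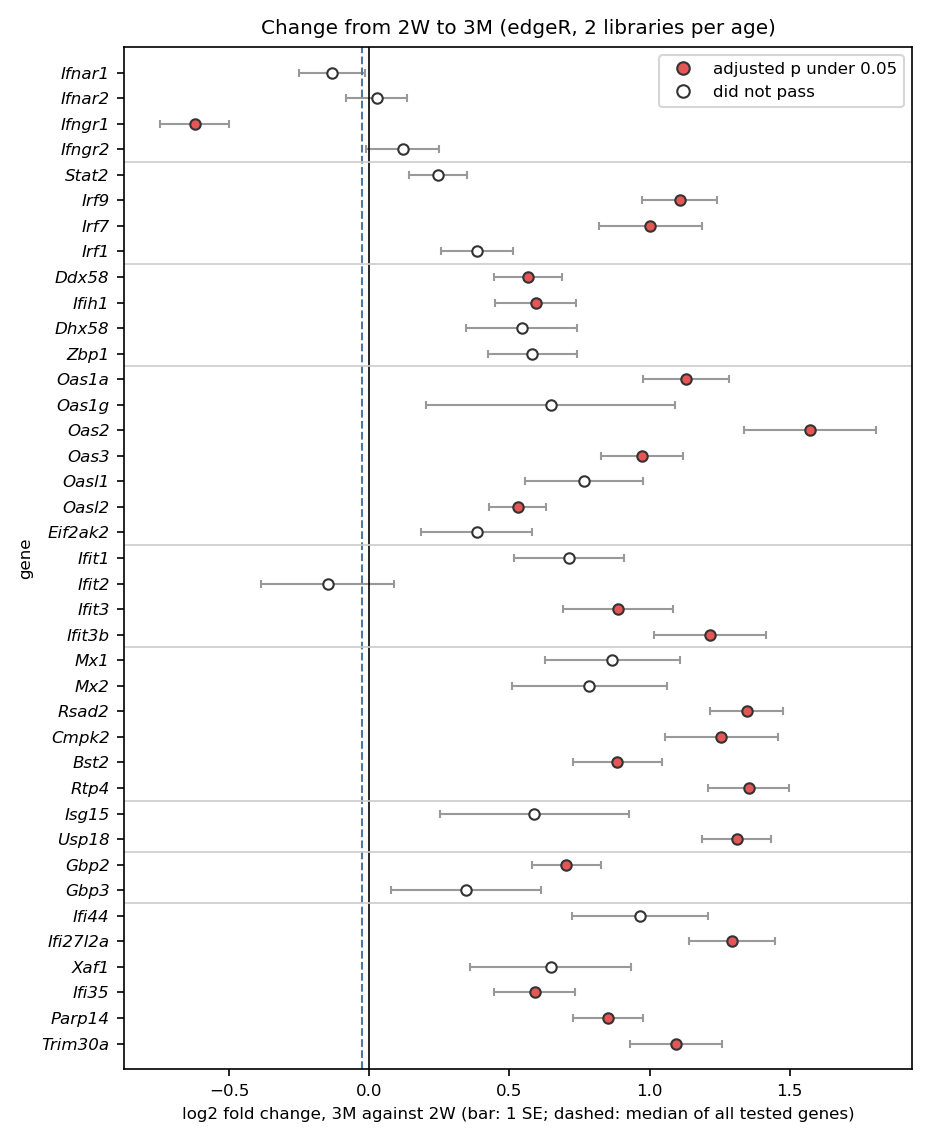
Log2 fold change in 3M against 2W for the 39 genes in order of role, with bars of 1 SE from the edgeR fit (2 libraries per age); red points have an adjusted p under 0.05 and the dashed line is the median of all tested genes. Of the 35 genes below the receptors, 34 lie to the right of 0, from Stat2 at 0.25 to Oas2 at 1.57, and Ifit2 lies to its left, while among the receptors Ifngr1 is the called one, at -0.62.

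In all 13 alternative fits of 3M against 2W, each fit without 1 library included, 5 genes were called: Irf9, Rsad2, Rtp4, Usp18 and Ifi27l2a. Each was more than 2-fold higher at 3M than at 2W. Of the 6 fits without 1 library, Oas1a was called in 5, Oas2, Oas3, Ifit3b, Cmpk2, Parp14 and Trim30a in 4, Irf7 and Gbp2 in 2, and Ddx58, Ifih1, Oasl2, Ifit3, Bst2 and Ifi35 in 1. The calls were fewest in the fits without a 2W library, as counted above.

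The size of each step was compared gene by gene. Rsad2, Oas2, Cmpk2 and Mx1 had the larger fitted change in the later step, and Bst2, Ifi27l2a, Oas1a and Irf7 in the earlier one. These 8 were picked after the values were seen, and in Oas2 and Cmpk2 both 6W libraries also lay above both 2W libraries. The difference between the steps (3M against 6W minus 6W against 2W) was 1.46 for Rsad2 (SE 0.23, unadjusted p = 0.000499, edgeR adjusted p = 0.287), -0.80 for Bst2 (SE 0.27, unadjusted p = 0.0210, edgeR adjusted p = 0.442) and -0.76 for Ifi27l2a (SE 0.26, unadjusted p = 0.0221, edgeR adjusted p = 0.445). None of the 39 passed the adjusted test of this difference. With an unadjusted p under 0.05 the later step was the larger in 3 genes (Oas2, Mx1 and Rsad2), against 4.55% of all tested genes, and the earlier step in 2 (Bst2 and Ifi27l2a), against 6.04%. Genes with early and late courses were therefore not told apart by this test at 2 libraries per age.

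**Figure D4:**
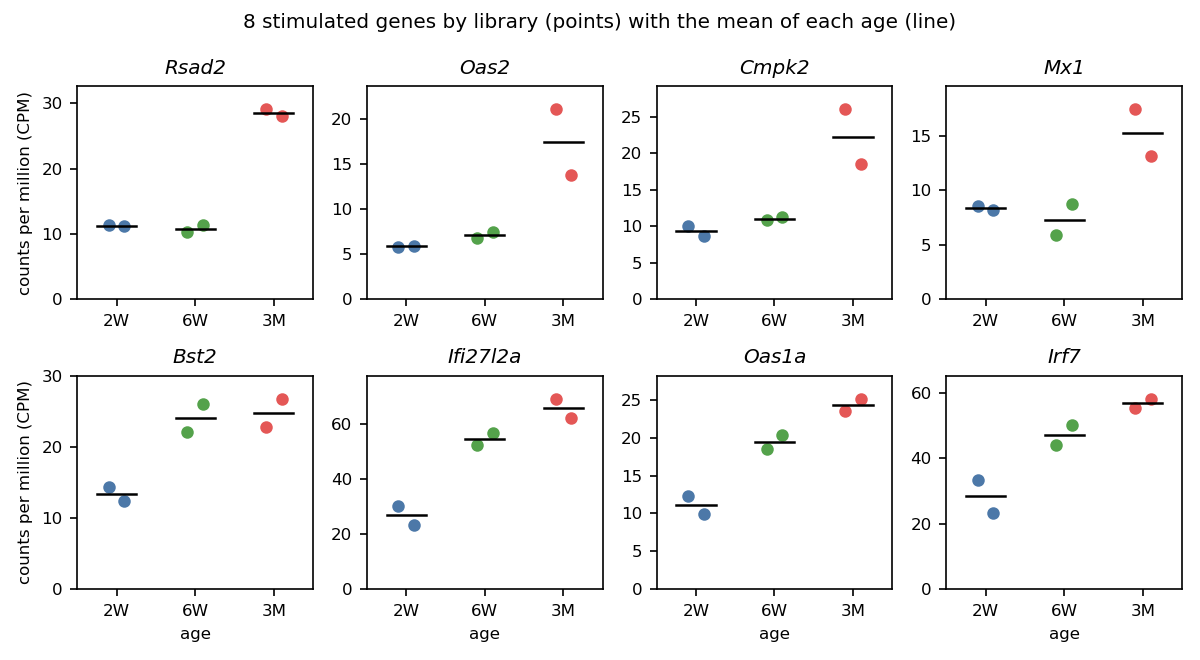
CPM of 8 stimulated genes in each library (points, 2 per age) with the mean of each age (line); the vertical axes start at 0 and differ between panels. In the upper row (Rsad2, Oas2, Cmpk2, Mx1) the 2W and 6W points lie close together and the 3M points above them, and in the lower row (Bst2, Ifi27l2a, Oas1a, Irf7) the 6W points already lie near the 3M points.

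Called genes were found both with and without the ISRE core in the promoter window. In 3M against 2W, 7.91% of all tested genes were called higher and their median log2 fold change as a whole was -0.03. Of the 16 genes with the core, 10 were called higher in this comparison and their median log2 fold change was 0.71. Of the 10 stimulated genes whose window lacked it, 5 were called and the median was also 0.71, and of the 9 whose promoter was not in the table, 5 were called with a median of 0.87. Within the first group Rsad2, with a single core, was higher at 3M by 1.35 on the log2 scale, while Isg15, with 3 cores, was not called. This pair was picked after the values were seen. The search finds only exact cores inside the window, and a relation between cores and the change with age was not tested.

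The interferon genes themselves were at or near 0 counts. Of 21 ligand genes, all in the table, none passed the filter and 17, among them every listed Ifna gene, Ifnb1, Ifne and Ifnk, had no count in any library, where a count of 0 allows up to 3 counts or 0.132 to 0.190 CPM, depending on the library. Ifng, which encodes interferon-gamma, had 3 and 5 counts at 2W, 7 and 2 at 6W, and 12 and 7 at 3M. Ifnz had 1.0 to 5.3 counts in a library, Ifnl2 at most 2 and Ifnl3 at most 1. None of the ligands was tested between ages. For Ifng both 3M libraries lay above both 2W libraries, narrowly, at 0.722 and 0.314 CPM against 0.190 and 0.307 CPM. Such an order was seen in 27.7% of all tested genes, and the 6W libraries of Ifng overlapped both other ages. The limits given for a count of 0 cover counting error only.

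Other genes of the pathway, from a list of 134 that leaves out the 39, were counted in the same way. Of the 110 that were tested, 38 were called higher in 3M against 2W, against 7.91% of all tested genes, and 0 lower, against 3.10%. Their median log2 fold change was 0.47, beside -0.03 over all genes, and 14 passed the study's threshold as higher, against 7.67%. The list gave 6 calls, all higher, in 6W against 2W, against 1.47% of all genes. In 3M against 6W edgeR called none of the list and DESeq2 called 17, of 335 genes in the whole table. With an unadjusted p under 0.05 in that step, 27 were higher, against 7.81% of all tested genes, and 4 lower, against 6.46% (Ifitm1, Ikbke, Apol9b and Sp110, named after the values were seen). Of these 4, Ifitm1, a membrane protein of the IFITM family, passed the study's threshold as lower (log2 fold change -1.04, SE 0.31, edgeR adjusted p = 0.259). The 38 calls became 7 without 2W replicate 1, 6 without 2W replicate 2 and 12 without either 6W replicate, and the 6 calls of the earlier step became 0 without any 1 of the 4 libraries of 2W and 6W, 15 without 3M replicate 1 and 13 without 3M replicate 2. The genes with the smallest p in 3M against 2W were Ly6c2 and Ly6a, surface proteins induced by interferon, Irgm2, a GTPase that guards against intracellular pathogens, and Nlrc5, the transactivator of MHC class I genes.

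Ly6c2 was at 10.1 and 9.38 CPM at 2W, 21.9 and 19.7 CPM at 6W, and 32.8 and 32.6 CPM at 3M. This was 3.35-fold between 3M and 2W (log2 fold change 1.74, SE 0.13, edgeR adjusted p = 0.00425) and 2.13-fold in the earlier step (edgeR adjusted p = 0.0247). Ly6a was at 32.9 and 28.1 CPM at 2W, 59.6 and 63.8 CPM at 6W, and 104 and 91.1 CPM at 3M, 3.19-fold over the whole span (log2 fold change 1.67, SE 0.13, edgeR adjusted p = 0.00485). Irgm2 was 2.20-fold higher (log2 fold change 1.14, SE 0.11, edgeR adjusted p = 0.00561), and Nlrc5 was 2.06-fold higher (log2 fold change 1.04, SE 0.11, edgeR adjusted p = 0.00693). In 6W against 2W the smallest p after those of Ly6c2 and Ly6a belonged to Slfn1, 1.62-fold higher (log2 fold change 0.70, SE 0.11, edgeR adjusted p = 0.0407), and Samhd1, a nucleotide hydrolase that starves viruses, 1.58-fold higher (log2 fold change 0.66, SE 0.11, edgeR adjusted p = 0.0443).

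By role, none of the 7 negative regulators in this list (the SOCS and PIAS genes and others) was called in any comparison. In 3M against 2W, 7.91% of all tested genes were called higher and 3.10% lower. The absence of a call among 7 genes therefore does not set them apart. Usp18, which blocks signalling at Ifnar2, and Rtp4, known to dampen the response, are outside this list. Both were called higher in 3M against 2W, with log2 fold changes of 1.31 and 1.35. Of 13 tested sensors and adaptors 4 were called higher at 3M than at 2W (Tlr7, Tlr9, Irf5 and Nlrc5), and of 81 other interferon-stimulated genes 32 were, both against 7.91% of all tested genes. The names in these counts other than Nlrc5 fall outside the naming rule and were chosen after the values were seen.

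Markers of several cell types moved with age in the same libraries. The sum of 10 macrophage markers was 338 to 393 CPM at 2W, 743 to 789 CPM at 6W and 789 to 844 CPM at 3M, with 7 of the 10 called higher in 3M against 2W. The sum of 8 conventional dendritic cell markers was 89.9 to 98.3 CPM at 2W, 155 to 159 CPM at 6W and 160 to 188 CPM at 3M, with 5 called higher. Of the plasma cell markers 3 of 6 were called higher, with a sum of 35.9 to 48.4 CPM at 2W and 210 to 250 CPM at 3M. Igha made up 33.1% to 71.8% of that sum over the 6 libraries, and Mzb1 was not called (log2 fold change -0.84, edgeR adjusted p = 0.0524). B cell markers rose in 2 of 7 (Cd22 and Ighm), with a sum of 357 to 443 CPM at 2W and 667 to 710 CPM at 3M, of which Ighm alone made up 87.1% to 91.2% over the 6 libraries. Markers of plasmacytoid dendritic cells, known for making type I interferon, were called lower in 1 of 6 tested (Ccr9, which thymocytes also express and which makes up most of their sum) and higher in none. Siglech, their defining marker, was at 2.59 to 7.46 CPM over the 6 libraries.

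Adipocyte markers had the largest median difference of these lists, 3.08 on the log2 scale, with 5 of 6 called higher and a sum of 33.1 to 35.9 CPM at 2W, 92.2 to 98.8 CPM at 6W and 109 to 206 CPM at 3M. Of the 7 cortical thymic epithelium markers 3 were called higher (Prss16, Ly75 and Cxcl12) and 2 lower (Foxn1 and Dll4), with a sum of 1507 to 1522 CPM at 2W and 1960 to 2022 CPM at 3M. None of the 7 medullary thymic epithelium markers was called, with a sum of 173 to 244 CPM at 2W and 282 to 412 CPM at 3M. The sum of 6 natural killer cell markers, of a cell type known for making interferon-gamma, was 58.1 to 63.9 CPM at 2W, 63.7 to 69.8 CPM at 6W and 89.3 to 96.7 CPM at 3M. Of the 5 tested, Klrb1c alone was called higher in 3M against 2W (edgeR adjusted p = 0.00722), with a median log2 fold change of 1.43 over the 5, and Gzma made up 77.3% to 89.5% of the sum. Of 7 endothelium markers 2 were called higher (Flt1 and Vwf), and of 7 fibroblast markers 2 were called higher (Pdgfra and Dcn) and 2 lower (Col1a1 and Col3a1). None of the 6 tested red blood cell markers was called, but their list summed to 2167 CPM in 3M replicate 2 and to 402 to 816 CPM in the other 5 libraries. Without 3M replicate 2, 18 of the 39 genes were called in 3M against 2W.

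Thymocyte markers went the other way, with 3 of 8 called lower at 3M than at 2W, as were 5 of 7 markers of DP thymocytes and 5 of 7 of cycling cells. Of the 7 mature thymocyte markers 2 were called higher, and their sum was 390 to 400 CPM at 2W, 540 to 559 CPM at 6W and 538 to 546 CPM at 3M. No marker of these lists was at 0 in all libraries. In bulk tissue, fewer cells of a type and less RNA per cell cannot be told apart, and the part of these cell types in the values of the interferon-stimulated genes was not tested.

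**Figure D5:**
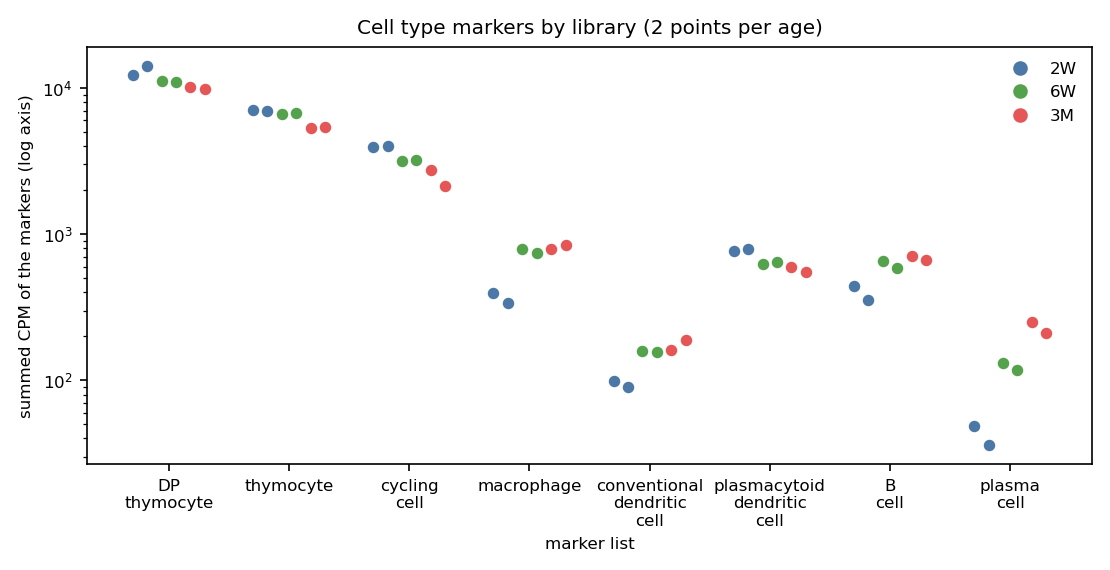
Summed CPM of 8 lists of cell type markers in each library (points, coloured by age, 2 per age; log axis). Macrophage, conventional dendritic cell, B cell and plasma cell lists are lowest at 2W, with macrophage markers at 338 to 393 CPM there against 743 to 844 CPM later, while thymocyte, DP thymocyte and cycling cell lists are highest at 2W.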

How the data were processed

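RNA of mouse thymus at 3 ages (2 libraries each) was analysed. The authors deposited, per transcript, estimated counts and FPKM values made from ribosomal RNA-depleted, dUTP-stranded libraries, with assembled transcripts beside Ensembl ones. The aligner, the quantification program and the genome build of this table are not given in the sources used here, and the submitters' processing notes name Bowtie 0.12.2 and mm8 without saying for which data. A deposited table of circular RNAs holds back-splice junction counts. Of its 6300 circular RNAs, 1 was annotated as intronic in Ifngr1 and 1 as antisense to Mx1, and none was assigned to the other genes of the 39. Each had 2 counts in all, under the floor of 3 counts, and neither was analysed further.

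Estimated counts were summed by gene symbol, with symbols that differ only in case joined, and rounded. Rows without a symbol (0.70% to 1.20% of a library's counts) were left out. Genes were kept with filterByExpr by age, scaled with TMM and tested with edgeR 4.0.16 (glmQLFit, glmQLFTest, R 4.3.3) on all 6 libraries with age as the only term, with p adjusted over 14805 genes (Benjamini-Hochberg, two-sided). SE is the absolute log2 fold change divided by the square root of F. Levels in FPKM are sums over transcripts. Alternatives were DESeq2 1.42.0, total-count scaling, no filter, the 4 libraries compared, a replicate block, symbols as written, assembled transcripts left out, each library left out, and the study's threshold. A contrast of both steps was added after the values were seen. Motifs were searched in RefSeq windows with Python 3.11.15 and figures drawn with matplotlib 3.10.9.

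The 39 genes, the pathway list and the markers were chosen with earlier results of these data known. By the naming rule, values in every library are given for the receptors, for genes past either threshold in any comparison and for the 6 smallest p in each, 25 genes, and the other 14 by their range over the libraries or within an age. Ligands are named where any library holds a count, and other pathway genes by the 4 smallest p per comparison among those called. The small RNA libraries and the table of long non-coding RNAs were not used. A result on 1 gene of the pathway list is not reported here.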

Additional observations from a re-analysis of the deposited data

How the results depend on the processing

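The direction of each called value of the 39 genes held in all 308 recomputed values. Of these 88 were no longer past the threshold, and the cause was not tested. The 308 include a fit with a larger prior count, which alters fold changes and not p, so it could not lose a call. The called genes of the pathway list are not among the 308. The 21 genes called in 3M against 2W became 25 with DESeq2, 26 with total counts as the only scaling, 24 without a filter, 19 with symbols as written, 15 without assembled transcripts, 13 with only the 4 libraries compared, 13 with a replicate block, 11 by the study's threshold (2098, 1787, 1840, 1433, 922, 663, 742 and 1385 in the whole table, against 1630) and 5 to 18 with 1 library left out, and the 38 of the pathway list became 44, 44, 40, 35, 30, 13, 16 and, with 1 library left out, 6 to 38. In 6W against 2W the 1 call became 4 with DESeq2, 3 with total counts as the only scaling, 3 without a filter, 3 with the 4 libraries compared, 0 with a replicate block, 0 with symbols as written, 0 without assembled transcripts and 0 to 3 with 1 library left out, and the 6 of the pathway list became 20, 10, 10, 15, 0, 2, 0 and 0 to 15. Calls in the whole table moved as well in that comparison, from 257 to 834, 395, 467, 662, 5, 124, 4 and 0 to 658. In 3M against 6W the 0 calls became 9 with DESeq2, 1 without a filter and 4 by the study's threshold (335, 19 and 312 in the whole table, against 1), and those of the pathway list became 17 with DESeq2 and 0 to 1 with 1 library left out. Replicate 1 deviations correlated between ages at -0.18, -0.06 and 0.35, the last between 6W and 3M. With 2 libraries per age these values cannot show whether libraries of the same number belong together. The block values are therefore given as an alternative only. The median over the 39 genes in 3M against 2W was 0.64 to 0.92 with 1 library left out. Total-count scaling moved the median of all genes by less than 0.1. Signs turned only in values that were not called. Without assembled transcripts, Mx1 went from -0.19 to 0.38 and Cmpk2 from 0.25 to -0.21 in 6W against 2W, Rsad2 was 0.0103 there with total counts, and Ifngr2 in 3M against 6W was -0.011 with DESeq2, -0.0178 without a filter and -0.00048 with the 4 libraries compared. With 1 library left out, 6W against 2W ranged from -0.0629 to 0.13 for Ifnar1, -0.031 to 0.30 for Ifngr2, -0.50 to 0.063 for Mx1 and -0.13 to 0.0207 for Rsad2. 3M against 6W ranged from -0.18 to 0.00926 for Ifnar2, -0.0213 to 0.0327 for Ifngr2 and -0.13 to 0.17 for Bst2, and 3M against 2W from -0.0736 to 0.11 for Ifnar2 and -0.0251 to 0.28 for Ifngr2. Shares of promoters with a motif were 37.1% (ISRE core) and 17.1% (GAS) in only the 250 bases before the start, against 2.98% and 7.02% of all. With 2 libraries per age the SEs of the named genes were 0.10 to 0.24, and a difference of several SEs could stay uncalled, such as that of Rsad2 in 3M against 6W (1.40, SE 0.13, edgeR adjusted p = 0.142).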
